A study of Mus musculus with 3 samples.

Results

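The genes described here are the 3 D cyclins (Ccnd1, Ccnd2 and Ccnd3), the 2 kinases that they activate (Cdk4 and Cdk6) and 5 inhibitors of these kinases (Cdkn1a, Cdkn1b, Cdkn2a, Cdkn2c and Cdkn2d). They were taken by symbol, as a list of regulators of the G1 phase of the cell cycle, and all 10 were found among the 27179 genes of the deposited count table. RNA was sequenced from mouse pro-B cells, the precursors that rearrange the immunoglobulin heavy chain. There were 2 Pax5-/- samples, prepared independently and from male C57BL/6 mice, and 1 wild-type sample from a female C57BL/6 mouse. Pax5 is the transcription factor that holds cells in the B lineage. All samples began as B220+ bone marrow cells grown on OP9, a mouse stromal feeder line. The protocol of both Pax5-/- samples names day 7 and a magnetic depletion that kept the IgM- fraction, and the wild-type protocol names neither. Sex, the stated day and depletion, and genotype therefore cannot be told apart, and the labels do not say which part of Pax5 the mutant allele lacks. The comparison asks how the genes that gate entry into S phase differ when Pax5 is missing, and whether the balance among the D cyclins does.

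As background, D cyclins are the short-lived partners that mitogens and cytokines induce in G1. Bound to CDK4 or CDK6 they phosphorylate the retinoblastoma protein, which frees E2F factors to switch on genes of DNA synthesis. Ink4 proteins (the products of Cdkn2a, Cdkn2c and Cdkn2d) bind the kinases and keep the cyclins off, whereas Cip/Kip proteins (the products of Cdkn1a and Cdkn1b) bind cyclin and kinase complexes and stop cyclin E with CDK2. In mouse B-cell precursors cyclin D3 is the D cyclin known to be needed for expansion under the interleukin-7 and pre-B-cell receptors, and cyclin D2 is known for the response of mature B cells to antigen.

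The count table gives Entrez numbers and lengths only, and positions are those of RefSeq on GRCm38.p6, which places the D cyclins Ccnd1 (Entrez 12443) at chr7:144929931-144939831, Ccnd2 (Entrez 12444) at chr6:127125162-127152188 and Ccnd3 (Entrez 12445) at chr17:47505051-47599689. The kinases are Cdk4 (Entrez 12567) at chr10:127063535-127067288 and Cdk6 (Entrez 12571) at chr5:3341004-3531008. The Cip/Kip inhibitors are Cdkn1a (Entrez 12575) at chr17:29090979-29100722 and Cdkn1b (Entrez 12576) at chr6:134920401-134925525. The Ink4 inhibitors are Cdkn2a (Entrez 12578) at chr4:89274473-89294619, Cdkn2c (Entrez 12580) at chr4:109660876-109666756 and Cdkn2d (Entrez 12581) at chr9:21288459-21291421.

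Promoter windows, 250 bases before to 50 bases after an annotated start, were available from RefSeq (GRCm38.p6, the assembly called mm10) for 8 of the 10 genes, 12 windows in all. Those of Ccnd3 and Cdkn2a are shown as examples of genes with 2 starts, which Cdkn1a and Cdkn2c also have. That of Cdk6 is shown because it rose, and that of Cdkn1b as an example of a Pax5 core match. All are written 5′ to 3′ on the gene's own strand. Capitals mark every match, on either strand, to the motifs searched: the Pax5 core GCGTGAC, the E2F sites TTTGGCGC, TTTCGCGC and TTTCCCGC, the FoxO site TGTTTAC, the E-box CACGTG and the STAT5 site TTCNNNGAA.
Ccnd3 upstream start, chr17:47504801-47505100, plus strand: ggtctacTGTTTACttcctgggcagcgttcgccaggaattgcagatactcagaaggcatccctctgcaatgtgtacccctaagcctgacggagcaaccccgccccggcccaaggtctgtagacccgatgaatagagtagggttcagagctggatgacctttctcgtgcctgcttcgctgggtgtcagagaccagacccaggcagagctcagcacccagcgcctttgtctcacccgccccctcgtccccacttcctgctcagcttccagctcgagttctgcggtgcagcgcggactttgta
Ccnd3 downstream start, chr17:47593217-47593516, plus strand: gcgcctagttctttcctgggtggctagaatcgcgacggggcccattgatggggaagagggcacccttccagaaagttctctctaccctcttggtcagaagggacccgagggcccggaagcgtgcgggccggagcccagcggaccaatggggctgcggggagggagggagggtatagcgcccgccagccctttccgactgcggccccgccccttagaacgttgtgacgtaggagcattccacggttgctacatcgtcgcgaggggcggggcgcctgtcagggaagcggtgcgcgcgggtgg
Cdk6, chr5:3343643-3343942, plus strand: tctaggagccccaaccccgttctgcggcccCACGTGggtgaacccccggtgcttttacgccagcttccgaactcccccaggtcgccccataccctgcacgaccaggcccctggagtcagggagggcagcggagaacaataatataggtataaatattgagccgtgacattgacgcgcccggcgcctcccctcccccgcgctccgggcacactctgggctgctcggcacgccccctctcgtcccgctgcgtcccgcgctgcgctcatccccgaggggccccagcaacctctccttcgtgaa
Cdkn1b, chr6:134920151-134920450, plus strand: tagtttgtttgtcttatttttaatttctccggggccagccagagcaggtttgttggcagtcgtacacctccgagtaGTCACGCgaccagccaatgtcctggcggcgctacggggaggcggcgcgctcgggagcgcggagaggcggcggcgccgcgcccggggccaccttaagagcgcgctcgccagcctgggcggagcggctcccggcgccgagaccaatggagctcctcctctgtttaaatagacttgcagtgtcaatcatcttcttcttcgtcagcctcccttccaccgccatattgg
Cdkn2a upstream start, chr4:89294570-89294869, minus strand: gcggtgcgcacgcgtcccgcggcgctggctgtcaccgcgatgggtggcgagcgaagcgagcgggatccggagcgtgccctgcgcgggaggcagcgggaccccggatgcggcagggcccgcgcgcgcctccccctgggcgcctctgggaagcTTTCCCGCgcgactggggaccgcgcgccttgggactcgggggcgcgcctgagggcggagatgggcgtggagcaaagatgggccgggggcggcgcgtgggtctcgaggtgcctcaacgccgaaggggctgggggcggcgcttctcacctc
Cdkn2a downstream start, chr4:89282143-89282442, minus strand: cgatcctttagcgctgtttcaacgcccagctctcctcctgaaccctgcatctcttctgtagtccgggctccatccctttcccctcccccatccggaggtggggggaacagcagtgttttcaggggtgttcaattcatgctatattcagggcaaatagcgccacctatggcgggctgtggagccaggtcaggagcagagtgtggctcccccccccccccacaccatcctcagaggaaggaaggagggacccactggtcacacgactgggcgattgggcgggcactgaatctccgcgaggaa
Among all 32851 RefSeq windows, 2.09% held the Pax5 core, 1.84% an E2F site, 3.65% the FoxO site, 7.15% the E-box and 8.3% the STAT5 site. Of the windows shown, Cdkn1b held the Pax5 core, the upstream Ccnd3 window the FoxO site, Cdk6 an E-box and the upstream Cdkn2a window an E2F site. The upstream Cdkn2a start is that of Arf and the downstream start that of Ink4a, 2 unrelated proteins of this locus. Gene-level counts cannot say which start was used for Ccnd3, Cdkn1a, Cdkn2a or Cdkn2c. Of the windows not shown, Cdk4 held 4 E-boxes (8 of all windows held 4 or more), a downstream window of Cdkn1a, which was not called, the Pax5 core and Cdkn2c an E-box. No window of these genes held the STAT5 site.

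The libraries held 6487846 and 6697879 counts in Pax5-/- samples 1 and 2 and 6530057 in the wild type. Pax5 itself had 417 and 551 counts in the Pax5-/- samples against 1601 in wild-type cells, so that transcripts of the gene were reduced but not lost (log2 fold change -1.78, SE 0.19, adjusted p = 0.0107, edgeR). The pro-B genes Rag1, Vpreb2 and Il7r had from 741 to 4621 counts in the Pax5-/- samples. Of 11783 genes tested, 18.1% were called different between the genotypes, 9.53% as higher and 8.55% as lower in Pax5-/- cells, by an edgeR quasi-likelihood test at an adjusted p under 0.05. All 10 cell-cycle genes passed the filter on low counts, Cdkn2a through the wild type alone. Of them 5 were called, 1 higher and 4 lower in Pax5-/-, and 5 were not called. The median log2 fold change was -0.46 over the 10 genes and 0.01 over all genes tested. These tests take their spread from the 2 Pax5-/- samples alone, as if wild-type samples varied to the same extent. In bulk RNA, fewer cells that express a gene and less of its RNA per cell cannot be told apart.

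The D cyclins shifted away from Ccnd3 in Pax5-/- cells. Ccnd3 had 2477 and 2681 counts in the Pax5-/- samples against 8385 in wild-type cells, or 382 and 394 against 1310 CPM (CPM being counts of a gene relative to the library total, scaled between libraries by the trimmed mean of M-values, TMM). Both Pax5-/- samples lay close together and far below the wild type. Ccnd3 averaged 388 ± 8.14 CPM (SD, n = 2) in Pax5-/- cells, 3.37-fold lower than in wild-type cells (log2 fold change -1.75, SE 0.10, adjusted p = 0.00400, edgeR quasi-likelihood test). Ccnd3, in its last exon, overlaps the last exon of Bysl, a ribosome assembly gene on the opposite strand, over 361 bases in GENCODE M21. Bysl had 333 and 350 counts in the Pax5-/- samples against 632 in wild-type cells and was also called lower (log2 fold change -0.94, SE 0.14, adjusted p = 0.0227). No strand setting is given for the counting, and the part of shared reads in the Ccnd3 result was not tested.

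Ccnd2, by contrast, was high in every sample and was not called. It had 5834 and 5241 counts in the Pax5-/- samples against 4474 in wild-type cells, or 900 and 770 against 698 CPM. Both Pax5-/- values were above the wild-type one, but the log2 fold change of 0.26 (SE 0.14, adjusted p = 0.258, edgeR) was not called, and the unadjusted 95% interval of the fold ran from 0.923 to 1.55. That interval excludes a fall as large as that of Ccnd3. Ccnd1, the D cyclin of most non-lymphoid tissues, was scarce throughout, with 123 and 60 counts in the Pax5-/- samples against 28 in wild-type cells. Its level of 19.0 and 8.81 CPM in Pax5-/- cells against 4.37 CPM in wild-type cells varied most, relative to its mean, among the D cyclins. The log2 fold change was 1.66 (SE 0.61, adjusted p = 0.138, edgeR), so Ccnd1 was not called, although the likelihood ratio test passed it (adjusted p = 0.0488). In GENCODE M21, exons of Ccnd1 overlap those of LTO1 on the opposite strand over 1100 bases. LTO1 had 64 and 84 counts in the Pax5-/- samples against 67 in wild-type cells.

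Because the genes differ in length, the balance among them was taken on counts per kilobase of the deposited gene length. On this scale Ccnd3 made up 51.2% and 56.2% of the summed D cyclin level in Pax5-/- samples 1 and 2 and 82.6% in the wild type. Ccnd2 made up 47.3% and 43.0% in the Pax5-/- samples against 17.3% in wild-type cells. Ccnd1 took 1.52% and 0.749% in the Pax5-/- samples against 0.164% in wild-type cells. The share of Ccnd3 was thus 53.7% ± 3.52 (SD, n = 2) in Pax5-/- cells, 28.9 percentage points under the wild type, a gap larger than the spread between the Pax5-/- samples. With 2 samples against 1, an exact permutation test cannot go below p = 0.333 (two-sided), which it gave. As shares of raw counts, Ccnd3 had 29.4% (exact Clopper-Pearson 95% interval 28.4 to 30.4) and 33.6% (32.6 to 34.6) in the Pax5-/- samples against 65.1% (64.2 to 65.9) in wild-type cells. Such intervals reflect counting alone, because reads that carry no molecular identifier are not independent molecules.

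The ratio of Ccnd3 to Ccnd2 per kilobase was 1.08 and 1.31 in the Pax5-/- samples against 4.78 in wild-type cells. Its change between the genotypes does not depend on the lengths used, but the order of the 2 cyclins within a sample does. The deposited lengths were 5772 bases for Ccnd2 and 2261 for Ccnd3, whereas the union of GENCODE M21 exons spans 9409 and 8775 bases. With the GENCODE lengths Ccnd3 made up 30.4% and 34.9% in the Pax5-/- samples against 66.5% in wild-type cells. In the wild type Ccnd3 was thus the leading D cyclin under either set of lengths, and in the Pax5-/- samples it was above Ccnd2 with the deposited lengths and below it with the GENCODE ones. The summed D cyclin level was 330 and 310 CPM per kilobase in the Pax5-/- samples against 700 in wild-type cells. Of the 3 D cyclins, Ccnd3 alone had a lower level in Pax5-/- cells than in wild-type cells.

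**Figure D1:**
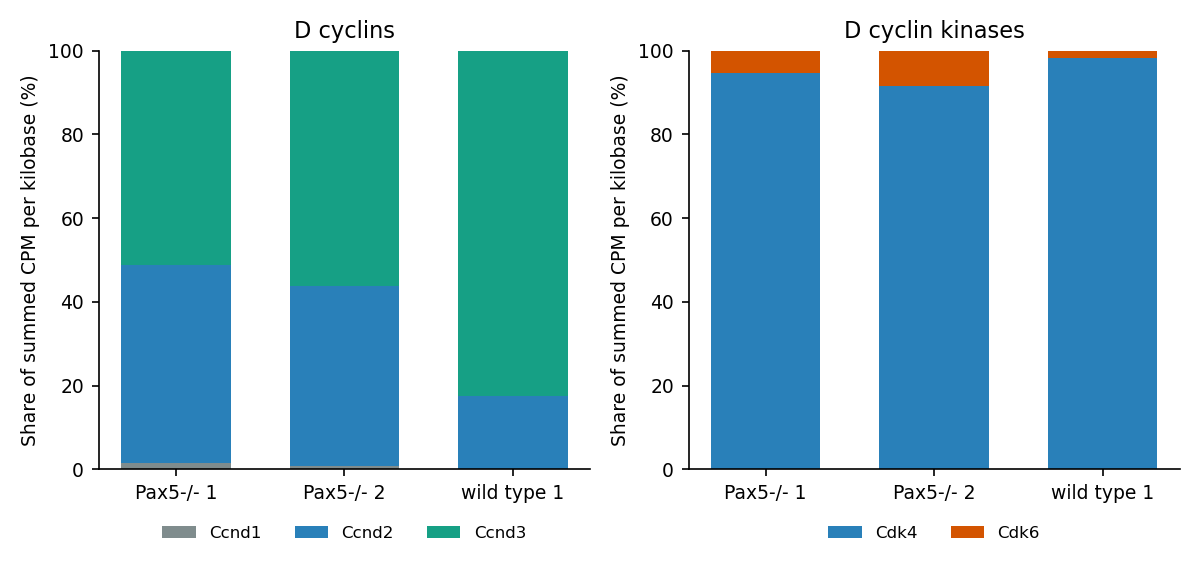
Shares of Ccnd1, Ccnd2 and Ccnd3 (left) and of Cdk4 and Cdk6 (right) in the summed level of each family, in percent of CPM per kilobase of the deposited gene length, for Pax5-/- samples 1 and 2 and the wild type. Ccnd3 fills 51.2% and 56.2% of the Pax5-/- bars and 82.6% of the wild-type bar, and Cdk6 is the thin upper segment of the kinase bars.

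Of the kinases, Cdk6 rose and Cdk4 stayed the more abundant. Cdk6, the kinase most characteristic of blood progenitors, had 527 and 908 counts in the Pax5-/- samples against 120 in wild-type cells. Its level was 81.3 and 133 CPM in Pax5-/- cells and 18.7 CPM in wild-type cells. Both Pax5-/- samples exceeded the wild type several times over, although they also differed from each other. The fold change was 5.73 (log2 fold change 2.52, SE 0.39, adjusted p = 0.0247, edgeR quasi-likelihood test), with an unadjusted 95% interval of 2.74 to 12.0. This was the only one of the 10 genes called higher.

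Cdk4 had 5093 and 5348 counts in the Pax5-/- samples against 3899 in wild-type cells, or 786 CPM in both Pax5-/- samples against 608 CPM. The 1.29-fold difference did not pass the threshold (log2 fold change 0.37, SE 0.10, adjusted p = 0.0761, edgeR). In GENCODE M21, exons of Cdk4 overlap those of Tspan31, a tetraspanin gene on the opposite strand, over 641 bases. In RefSeq the 2 genes barely meet, as Cdk4 ends at 127067288 and Tspan31 begins at 127067287. The annotation used for the counting is not given. Tspan31 had 755 and 636 counts in the Pax5-/- samples against 418 in wild-type cells. Per kilobase, Cdk6 made up 5.34% and 8.47% of the summed kinase level in the Pax5-/- samples against 1.65% in wild-type cells. That share averaged 6.91% ± 2.22 (SD, n = 2) in Pax5-/- cells, and the exact permutation test again gave its smallest possible p of 0.333 (two-sided). As raw counts the Cdk6 share was 9.38% (exact 95% interval 8.63 to 10.2) and 14.5% (13.6 to 15.4) in the Pax5-/- samples against 2.99% (2.48 to 3.56) in wild-type cells. With GENCODE exon lengths it was 2.35% and 3.79% in the Pax5-/- samples against 0.71% in wild-type cells. With the deposited lengths Cdk4 was 17.7 and 10.8 times as high as Cdk6 per kilobase in the Pax5-/- samples and 59.6 times as high in the wild type.

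Among all genes tested, ranked by CPM per kilobase within a sample, Cdk4 stood at percentile 99.3 in both Pax5-/- samples against 99.0 in wild-type cells. Ccnd3 stood at 96.4 and 96.8 in the Pax5-/- samples against 99.3 in wild-type cells, and Ccnd2 at 96.0 and 95.4 against 93.9. Cdk6 stood at 76.0 and 86.1 in the Pax5-/- samples against 39.1 in wild-type cells, and Cdkn2d at 64.7 and 54.7 against 84.1.

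**Figure D2:**
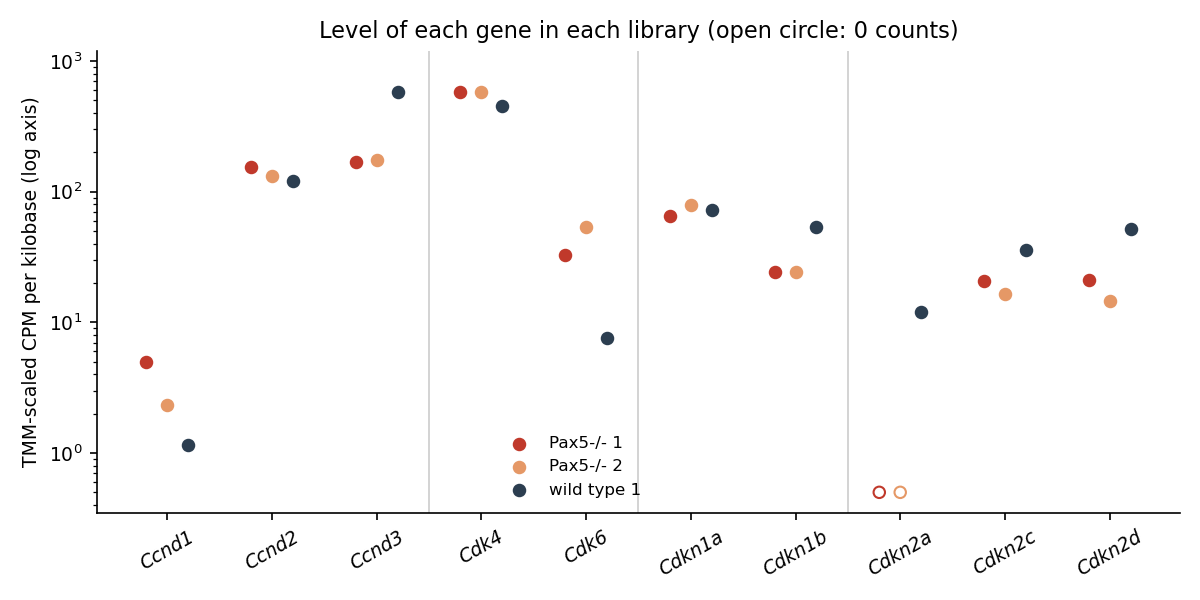
Level of each of the 10 genes in the 2 Pax5-/- samples and the wild-type sample, in TMM-scaled CPM per kilobase on a log axis, 1 point per library. Both Pax5-/- points lie below the wild-type point for Ccnd3, Cdkn1b, Cdkn2c and Cdkn2d and above it for Ccnd1, Ccnd2, Cdk4 and Cdk6. The open circles mark Cdkn2a at 0 counts in both Pax5-/- libraries.

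The Cip/Kip inhibitors parted. Cdkn1b, which encodes p27, the inhibitor that FoxO factors induce and SKP2 marks for destruction, had 378 and 400 counts in the Pax5-/- samples against 829 in wild-type cells. It stood at 58.3 and 58.8 CPM in Pax5-/- cells and 129 CPM in wild-type cells. The Pax5-/- samples were nearly equal, and Cdkn1b fell 2.21-fold (log2 fold change -1.14, SE 0.14, adjusted p = 0.0149, edgeR).

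Cdkn1a, which encodes p21, the inhibitor induced by p53, had 858 and 1097 counts in the Pax5-/- samples against 937 in wild-type cells. The wild-type level of 146 CPM lay between the 132 and 161 CPM of the Pax5-/- samples. Cdkn1a was not called, with a fold change of 1.00 and an unadjusted 95% interval of 0.717 to 1.41 (adjusted p = 0.982, edgeR). The ratio of Cdkn1a to Cdkn1b per kilobase was 2.69 and 3.26 in the Pax5-/- samples against 1.34 in wild-type cells, so p21 transcripts outnumbered p27 transcripts in all 3 samples with the deposited lengths.

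All 3 Ink4 genes had fewer counts in both Pax5-/- samples than in the wild type, and 2 of them were called. Cdkn2a, the locus of p16Ink4a and p19Arf, had 0 counts in either Pax5-/- sample and 87 in wild-type cells, which is 13.6 CPM. Against 3 counts over both Pax5-/- samples, Cdkn2a was at least 60.1-fold lower than in the wild type (adjusted p = 0.0143, edgeR quasi-likelihood test). It passed the filter only through the wild type, so that a test could find it in 1 direction only. Cdkn2b, the neighbouring gene of another Ink4 protein, had 0 counts in both Pax5-/- samples against 3 in wild-type cells and was not tested. Mtap, a gene on the other side of Cdkn2a, had 509 and 613 counts in the Pax5-/- samples against 823 in wild-type cells and was not called (log2 fold change -0.61, SE 0.16, adjusted p = 0.0757). Mtap, Cdkn2b, Bysl, Tspan31 and LTO1 were picked as neighbours after values had been seen.

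Cdkn2d, which encodes p19Ink4d, had 174 and 126 counts in the Pax5-/- samples against 419 in wild-type cells. Its level of 26.9 and 18.5 CPM in Pax5-/- cells was 2.88-fold lower than the 65.4 CPM of wild-type cells (log2 fold change -1.53, SE 0.25, adjusted p = 0.0283, edgeR). Cdkn2c, which encodes p18Ink4c, had 149 and 125 counts in the Pax5-/- samples against 255 in wild-type cells, or 23.0 and 18.4 against 39.8 CPM. Its log2 fold change of -0.94 (SE 0.21) just missed the threshold, with an adjusted p of 0.0505 (edgeR). Cdkn2c passed with RLE scaling (adjusted p = 0.0336), with no filter (0.0357), with robust dispersion estimation (0.0356) and in the likelihood ratio test (0.0134), and over all alternatives its adjusted p ranged from 0.0134 to 0.775.

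Summed per kilobase, the Ink4 genes came to 41.9 and 31.2 in the Pax5-/- samples against 99.3 in wild-type cells. The Cip/Kip genes summed to 89.6 and 104 in the Pax5-/- samples against 126 in wild-type cells. With the deposited lengths, all 5 inhibitors together were at 0.592 times the wild-type level in Pax5-/- cells and the D cyclins at 0.457 times. The ratio of summed D cyclins to summed inhibitors was then 2.51 and 2.29 in the Pax5-/- samples against 3.11 in wild-type cells. With GENCODE exon lengths both Pax5-/- samples would lie above the wild type, so the direction of this ratio depends on the lengths used. These sums describe transcripts only and weight each gene by its level.

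**Figure D3:**
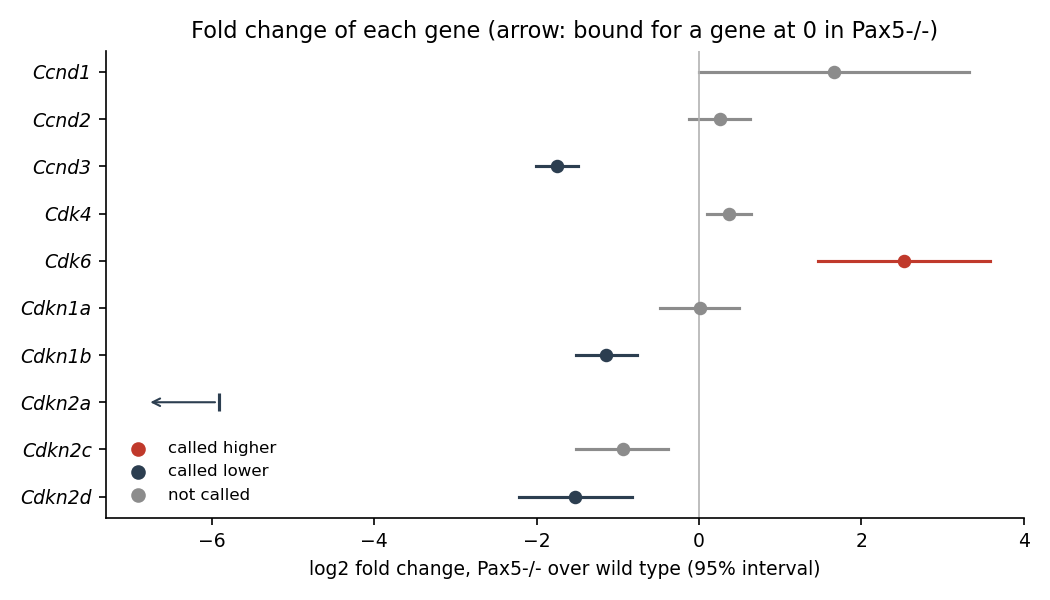
Log2 fold change of each gene, Pax5-/- over wild type, with its unadjusted 95% interval from the edgeR quasi-likelihood fit, coloured by call. Cdk6 is the gene called higher, and Cdkn2a is drawn as a bound because it had 0 counts in both Pax5-/- samples.

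Cdk6 and Cdkn2a passed in all 9 alternative tests, with adjusted p up to 0.0458 for Cdk6 (limma-voom) and up to 0.0212 for Cdkn2a (library size alone). Cdkn2a entered these tests through its wild-type counts alone, so that they could find it only as lower in Pax5-/-. All of these tests used the same wild-type sample. If every gene was instead given a replicate variation of 0.4 (as a coefficient of variation), Ccnd3, Cdkn1b and Cdkn2d no longer passed, with adjusted p of 0.0886, 0.52 and 0.2 in edgeR.

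A few of the genes downstream of the D cyclins changed. Counts in these lists are to be read against the 18.1% called over all genes tested, 8.55% as lower. Of the 3 retinoblastoma family genes, Rb1 fell, and Rbl1 and Rbl2 were not called. Rb1, the main substrate of cyclin D kinases, was at 41.1 ± 2.93 CPM (SD, n = 2) in Pax5-/- cells against 147 CPM in wild-type cells (log2 fold change -1.84, SE 0.15, adjusted p = 0.00692, edgeR). Rbl2, which encodes the quiescence-associated p130, had 86.0 and 84.2 CPM in the Pax5-/- samples against 53.8 CPM in wild-type cells (adjusted p = 0.0546). Of 10 E2F and DP genes, 3 fell, 0 rose and 7 were not called, at a median log2 fold change of -0.43. E2f2, an activator E2F of blood cells, had 477 and 421 counts in the Pax5-/- samples against 3020 in wild-type cells (log2 fold change -2.80, SE 0.16, adjusted p = 0.00402). E2f7 and E2f8, which encode the atypical repressors of the family, fell, with log2 fold changes of -1.43 (SE 0.14) and -0.98 (SE 0.16). E2f4, E2f5 and E2f6, which also encode repressors, were not called, at log2 fold changes of -0.48, -0.76 and -0.08. E2f1 was not called, at 43.5 and 43.3 CPM in the Pax5-/- samples against 48.5 CPM in wild-type cells.

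The cyclins that act after D cyclins were lower in part, where 8.55% of all genes tested were called lower. Of 9 tested genes of the cyclin E, cyclin A and CDK2 module, 3 fell, 0 rose and 6 were not called (median log2 fold change -0.09). Ccna2, the S-phase cyclin, was at 308 ± 43.9 CPM (SD, n = 2) in Pax5-/- cells against 573 CPM in wild-type cells (log2 fold change -0.90, SE 0.16, adjusted p = 0.0325, edgeR). Ccne2 (log2 fold change -0.71, SE 0.15, adjusted p = 0.0479) and Ccnh, the cyclin of the CDK-activating kinase (-0.71, SE 0.14, adjusted p = 0.0424), were called. Neither passed with DESeq2, library size alone or the likelihood ratio test, and Ccne2 also did not pass with limma-voom or the 10 CPM filter. Cdk2 itself was not called, at 106 and 115 CPM in the Pax5-/- samples against 111 CPM in wild-type cells.

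Genes of replication and mitosis gave 1 call, where 18.1% of all genes tested were called. Of 15 replication genes, 1 fell and 14 were not called, at a median log2 fold change of -0.02. The exception was Rrm2, the regulated subunit of ribonucleotide reductase, at 187 ± 9.86 CPM (SD, n = 2) in Pax5-/- cells against 551 CPM in wild-type cells (log2 fold change -1.55, SE 0.12, adjusted p = 0.00572, edgeR). Of 16 mitosis genes, 0 were called by edgeR's quasi-likelihood test, by DESeq2, by limma-voom or by any other alternative, and 3 had an unadjusted p under 0.05. Their median log2 fold change was -0.32. The proliferation marker Mki67 had 4524 and 4798 counts in the Pax5-/- samples against 5727 in wild-type cells (log2 fold change -0.35, SE 0.10, adjusted p = 0.0806), and Birc5 was at -0.54 (SE 0.19, adjusted p = 0.132). Of 7 genes of the DREAM and MuvB complexes, Mybl2 fell (log2 fold change -0.98, SE 0.14, adjusted p = 0.0202, edgeR) and 6 were not called.

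Other genes that carry the name of CDK inhibitors gave no call. Of 4 tested, 0 were called, 1 had an unadjusted p under 0.05, DESeq2 and limma-voom called 0 each, and no alternative called more than 1. Cdkn1c, which encodes p57, had 3 and 2 counts in the Pax5-/- samples against 15 in wild-type cells (log2 fold change -2.58, SE 0.71, adjusted p = 0.0816, edgeR), and only the likelihood ratio test called it (adjusted p = 0.00635). Cdkn3, a phosphatase gene, had 191 and 113 counts in the Pax5-/- samples against 290 in wild-type cells (log2 fold change -0.97, SE 0.36, adjusted p = 0.144).

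Lists of inputs to the D cyclins and inhibitors held a few calls each, to be read against the 18.1% called over all genes tested. Of 8 FoxO and PI3K genes, 3 fell and 5 were not called (median log2 fold change 0.04). Foxo1, an inducer of Cdkn1b, was at 109 ± 11.9 CPM (SD, n = 2) in Pax5-/- cells against 304 CPM in wild-type cells (log2 fold change -1.48, SE 0.15, adjusted p = 0.0103, edgeR). Sgk1, a kinase that inhibits FoxO factors, fell (log2 fold change -1.98, SE 0.22, adjusted p = 0.0125), and Akt2 also fell (log2 fold change -0.68, SE 0.14, adjusted p = 0.0467). Akt2 did not pass with DESeq2, limma-voom, library size alone or the likelihood ratio test. Foxo3 was not called, at 34.6 and 49.8 CPM in the Pax5-/- samples against 23.6 CPM in wild-type cells.

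Of 12 genes of interleukin-7 signalling, STAT5 and Myc, 3 rose, 0 fell and 9 were not called (median log2 fold change 0.06). Il7r (log2 fold change 0.92, SE 0.13), the kinase gene Jak3 (0.76, SE 0.14, adjusted p = 0.0363, edgeR) and the STAT5 target Socs2 (0.80, SE 0.16, adjusted p = 0.0425) rose. The likelihood ratio test called neither Jak3 nor Socs2, and limma-voom and library size alone did not call Socs2. Myc, an inducer of Ccnd2 and Cdk4, was not called, at 306 and 350 CPM in the Pax5-/- samples against 323 CPM in wild-type cells. Of 20 genes of cyclin and p27 turnover, 1 rose, 1 fell and 18 were not called (median log2 fold change -0.04), a smaller share than over all genes. Usp2, a deubiquitinase of cyclin D1, had 78 and 95 counts in the Pax5-/- samples against 26 in wild-type cells (log2 fold change 1.68, SE 0.31, adjusted p = 0.0345), which DESeq2 did not call. Pim2, a survival kinase gene, fell (log2 fold change -1.18, SE 0.24, adjusted p = 0.0423), and did not pass with library size alone. Skp2 and Cks1b, which direct p27 to destruction, were not called.

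Of 13 tested genes of the p53 pathway, 1 rose and 2 fell, and 10 gave no call (median log2 fold change -0.43). Pmaip1, which encodes the death factor Noxa, had 284 and 390 counts in the Pax5-/- samples against 48 in wild-type cells (log2 fold change 2.75, SE 0.27, adjusted p = 0.00906, edgeR). Bax (log2 fold change -0.93, SE 0.15, adjusted p = 0.0257) and Ccng1 (-0.85, SE 0.12, adjusted p = 0.0202) fell. Trp53, the gene of p53 itself, was at 345 and 347 CPM in the Pax5-/- samples against 353 CPM in wild-type cells.

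Among 15 tested regulators of the Ink4a/Arf locus, 2 fell, 0 rose and 13 were not called (median log2 fold change -0.13), a share no larger than the 18.1% over all genes tested. Both that fell encode Polycomb proteins, which are known to repress Cdkn2a. Ezh2 was at 274 ± 26.5 CPM (SD, n = 2) in Pax5-/- cells against 475 CPM in wild-type cells (log2 fold change -0.79, SE 0.13, adjusted p = 0.0295, edgeR), and the likelihood ratio test did not call it. Cbx7 had 43 and 41 counts in the Pax5-/- samples against 95 in wild-type cells (log2 fold change -1.23, SE 0.26, adjusted p = 0.0479), and did not pass with DESeq2, library size alone or the 10 CPM filter. Bmi1 was not called, at 125 and 116 CPM in the Pax5-/- samples against 108 CPM in wild-type cells. Suz12, Eed, Cbx8, Rnf2, Ring1 and Phc1, which also encode Polycomb proteins, were not called either.

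Lymphocyte regulators of G1 held calls in both directions. Of 15 genes, 6 fell, 4 rose and 5 were not called (median log2 fold change -0.49). Over all genes tested, 8.55% were called lower and 9.53% higher. Ikzf3, which encodes Aiolos, a repressor of the cell cycle in pre-B cells, had 9 and 22 counts in the Pax5-/- samples against 1744 in wild-type cells (log2 fold change -6.86, SE 0.42, adjusted p = 0.00442, edgeR). Klf2, Btg1 and Btg2, genes tied to quiescence, also fell, with log2 fold changes of -4.23 (SE 0.17), -3.43 (SE 0.17) and -2.39 (SE 0.21). Tob1 and Tob2, of the same list, were not called, at log2 fold changes of -0.47 (SE 0.26) and -0.49 (SE 0.22). Id3 fell (log2 fold change -4.05, SE 0.18), while Id2, its relative, rose (log2 fold change 2.30, SE 0.48, adjusted p = 0.0463). Runx1 (1.01, SE 0.19) and Runx3 (1.25, SE 0.16) rose, and Ikzf1, which encodes Ikaros, was not called.

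**Figure D4:**
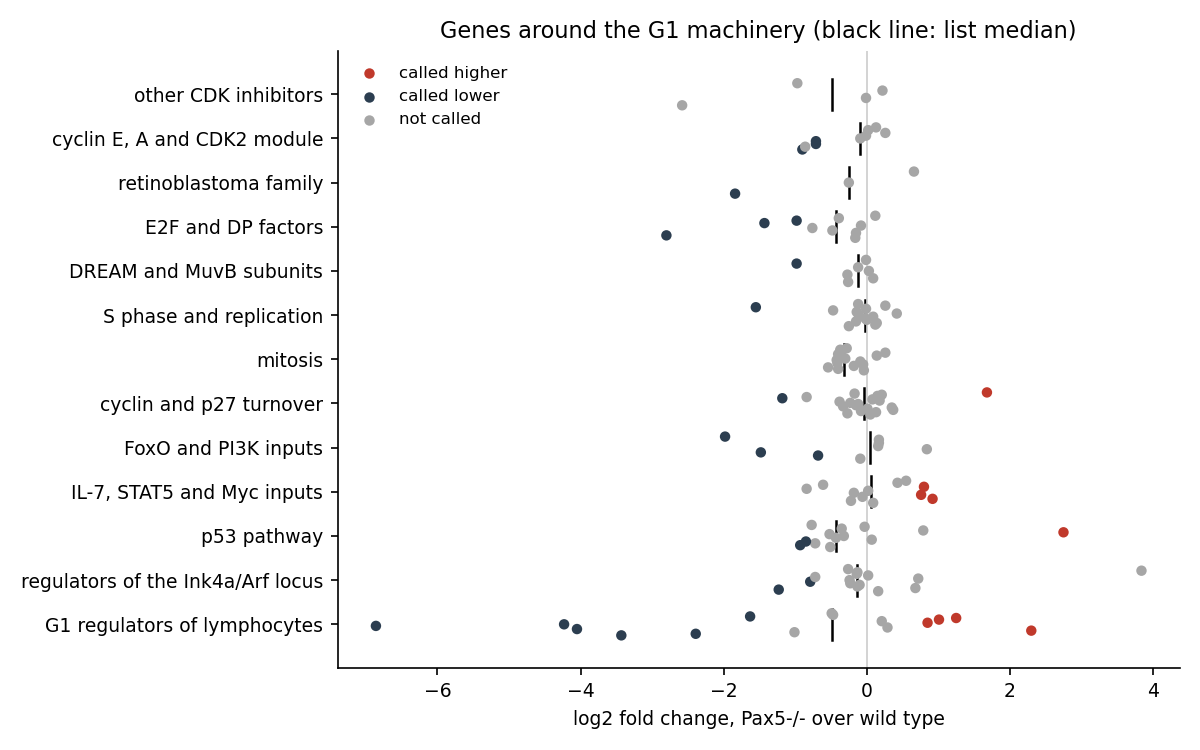
Log2 fold change, Pax5-/- over wild type, of every tested gene in 13 lists around the G1 machinery, with 1 point per gene coloured by call and a black line at the list median. The list medians run from -0.49 to 0.06, and the lymphocyte regulators spread from -6.86 (Ikzf3) to 2.30 (Id2).

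Likeness of profile was measured as the distance between log2 CPM values centred per gene over the 3 samples, among 147 tested genes of these lists. Nearest to Ccnd3 were Tcf3 (distance 0.13), which encodes the E2A proteins, Rb1 (0.15) and Rrm2 (0.19). Tcf3 had 190 and 214 CPM in the Pax5-/- samples against 625 CPM in wild-type cells. Nearest to Ccnd2 were Tyms (0.01), Kif23 (0.01) and Cdkn2aipnl (0.06), which were not called. With 3 samples such distances describe little more than the fold change and the gap between the 2 Pax5-/- samples.

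Markers of other cell types were counted beside these results. Of 16 stromal genes, which an OP9 carry-over would bring, 8 were tested, 1 rose, 0 fell and 7 were not called. The list summed to 5412 and 4990 counts in the Pax5-/- samples against 3226 in wild-type cells, nearly all from Vim and Thy1, which lymphoid cells also express. Without these 2 genes it summed to 74 and 75 counts in the Pax5-/- samples against 209 in wild-type cells, with Pdgfrb at 15 and 18 against 4 and Dcn and Lum at 0 in all 3. Of 6 genes of IgM+ and light-chain B cells, 4 were tested and called lower, of which Ms4a1 passed the filter through the wild type alone. All 6 together summed to 2010 and 1630 CPM in the Pax5-/- samples against 5580 CPM in wild-type cells, mostly from Ighm, which pro-B cells also express. Igkc, the kappa light-chain constant gene, had 54 and 30 counts in the Pax5-/- samples against 3927 in wild-type cells. Ms4a1 had 0 counts in both Pax5-/- samples against 442 in wild-type cells, while Cr2 had 2 and 0 against 10 and Fcer2a had 0 and 0 against 2. The part of light-chain-expressing cells in the Ccnd3, Cdkn1b, Cdkn2a and Cdkn2d results was not tested. The 10 T-cell genes summed to 237 and 185 CPM in the Pax5-/- samples against 42.0 CPM in wild-type cells, mostly from Lck, which was called higher (log2 fold change 2.40, SE 0.24, adjusted p = 0.0101, edgeR). Trac had 29 and 43 counts in the Pax5-/- samples against 7 in wild-type cells, and Gata3 had 4 and 15 against 2, and neither was called. Cd3e, Cd3d, Cd3g, Cd8a, Cd8b1 and Bcl11b had 0 to 2 counts in each sample. Of 13 myeloid genes, 6 were tested, 1 rose and 2 fell, and the list summed to 28.1 and 42.9 CPM in the Pax5-/- samples against 63.8 CPM in wild-type cells. S100a8 and S100a9, the 2 that fell, had 0 counts in both Pax5-/- samples against 30 and 232 in wild-type cells. Both passed the filter through the wild type alone and held most of its sum. Without them the list summed higher in both Pax5-/- samples than in wild-type cells. The 6 NK genes summed to 8.95 and 3.08 CPM in the Pax5-/- samples against 2.65 CPM in wild-type cells, and the 9 erythroid and megakaryocyte genes to 1.54 and 1.91 CPM against 0.936 CPM. The part of these cells in the results above was not tested.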

How the data were processed

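The authors deposited counts per gene, from featureCounts on mm10 per the submitters' processing notes. Aligner, annotation, strandedness and program version are not given in the sources read for this report. Each count file also gives a gene length in bases, per the file headers. The counts are whole numbers, not normalized, and 25275 of 27179 Entrez numbers (93.0%) were matched to RefSeq symbols of GRCm38.p6. Ccnd3 has an annotated pseudogene, Ccnd3-ps, and its counts are uncertain to that extent.

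The main test used edgeR 4.0.16 (R 4.3.3): filterByExpr with a minimum count of 10 set which genes entered, counts were scaled by TMM and the model was fitted with glmQLFit and glmQLFTest over all 3 samples, with Benjamini-Hochberg adjustment over all 11783 genes and a threshold of 0.05. There was 1 residual degree of freedom, moderated with 3.15 prior degrees of freedom. The procedure was tested on simulated counts with known changes, drawn with 1 common dispersion for all genes. It recovered 18.8% of 2-fold, 81.1% of 4-fold and 93.5% of 8-fold changes. A gene that was not called may therefore still differ 2-fold. Alternatives used DESeq2 1.42.0 and limma 3.58.1 (voom), RLE or library-size scaling, other filters, robust dispersion, a likelihood ratio test and an assumed variation of 0.4. From each gene list, up to 4 called genes (mean CPM 1 or more) were named, by size of change, or the 2 with the smallest p where none was called; the 3 nearest profiles of Ccnd2 and Ccnd3 and other genes chosen after their values were seen were added. The members and lists were chosen with earlier results of these data known. P-values of the main test rest on the spread between the 2 Pax5-/- samples, moderated across genes, and on none between wild-type samples.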

Additional observations from a re-analysis of the deposited data

How the results depend on the processing

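The count of called genes stayed within 1.5 times of 2130 under every alternative but the assumed biological coefficient of variation of 0.4, which gave 1206, and the count among the 10 cell-cycle genes stayed at 5 to 7 except there, where it was 2 (Cdk6 and Cdkn2a). Cdkn2a entered through its wild-type counts alone and could be called only as lower in Pax5-/-. None of the called genes recomputed under the alternatives (those named by the rule, Pax5 and Bysl) reversed its direction; Cdkn1a, which was not called, had a log2 fold change of -0.14 to 0.14 when either Pax5-/- sample was left out. Over the single genes recomputed and all alternatives, a call was lost 47 times, most often with that assumed variation, and gained 6 times. Some named genes, such as Id2, Runx1, Runx3, Btg2 and Lck, were not among those recomputed. Of the 15 lymphocyte regulators of G1, 5 to 10 were called under the alternatives. The likelihood ratio test alone also called Ccnd1 (adjusted p = 0.0488). Leaving out a Pax5-/- sample leaves 1 sample a group and no test. The Ccnd3 share, 28.9 points lower in Pax5-/- than in the wild type, then differed by -31.4 to -26.4 points, and by -33.6 points with raw counts. The Cdk6 share, 5.26 points higher, then differed by 3.69 to 6.82 points, and by 8.96 points with raw counts. With GENCODE exon lengths, an alternative chosen after seeing the data, the differences were -33.8 and 2.36 points. No paired analysis was possible because the labels pair no Pax5-/- sample with the wild-type sample. Among the 10 cell-cycle genes, Ccnd1 and Cdkn2c rest on the fewest counts of those not called.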
